A study of Bos taurus with 6 samples.

Results

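The members described here are the bovine miRNAs from bta-miR-2286 to bta-miR-2999, 265 in number, taken by name from the 1028 rows of an EV miRNA table, rows with no read included. Extracellular vesicles (EVs) were isolated from medium conditioned by bovine oviductal organoids, 3-D cultures of epithelial cells scraped from the oviduct. In all, 3 libraries (A, B and C) came from organoids held for 24 h at 42 °C, the heat stress group, and 3 libraries (A, B and C) came from organoids that stayed at 37 °C, the thermoneutral group. All organoids were grown at 37 °C before the exposure, all oviducts came from slaughterhouse tracts at diestrus, and EVs were collected by ultracentrifugation followed by size exclusion chromatography. Each library held a pool of 2 animals. The same oviducts were represented at both temperatures, but the labels tie no library to an animal, so every p-value below measures the spread between pools. The values are TMM-adjusted CPM, that is, read counts scaled to a common total and rescaled by trimmed mean of M-values factors, and reads recovered from them. In such bulk libraries, fewer vesicles and less RNA per vesicle cannot be told apart.

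An miRNA is cut from a hairpin transcript by Drosha and Dicer, and the arm that is kept guides an Argonaute protein to messenger RNAs that pair with its seed. miRBase numbers miRNAs in the order in which they were submitted, so that a run of neighbouring numbers groups miRNAs by when they were described and not by sequence or function. Most of the cattle miRNAs in this run were first described in cattle. The names present ran from bta-miR-2286 to bta-miR-2917, with none between bta-miR-2489 and bta-miR-2881 and 24 members from bta-miR-2881 upward. A suffix for the 5p or 3p arm was carried by 70 members, and a letter suffix by 11.

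These miRNAs were scarcely present in the EVs. A read was found for 27 of the 265 members (10.2%) and for 314 of the 763 other miRNAs (41.2%). The other 238 members had 0 of 712175 reads, which allows a share of up to 0.000421% for each by counting error alone. All members together held 416 reads, 0.0584% of the total, and 270 of those reads (64.9%) belonged to bta-miR-2478. The remaining 26 members shared 146 reads, 76 at 42 °C and 70 at 37 °C, and none of them exceeded 22 reads.

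Most members with a read were seen in 1 library and no other. Of the 27, 20 were read in 1 library, 2 in 2 libraries, 2 in 3, 2 in 4, and 1, bta-miR-2478, in all 6. As totals, 9 members were seen as 1 read, 8 as 2 to 4 reads, and 7 as 10 or more reads. By temperature, 15 members had a read at 42 °C and 19 at 37 °C, with 7 in both groups, 8 only at 42 °C and 12 only at 37 °C. Single libraries carried these counts: without 42 °C library A, 8 members had a read at 42 °C, and without 37 °C library B, 7 had a read at 37 °C. The split by temperature was not set beside that of all miRNAs, so it describes the members alone.

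**Figure D1:**
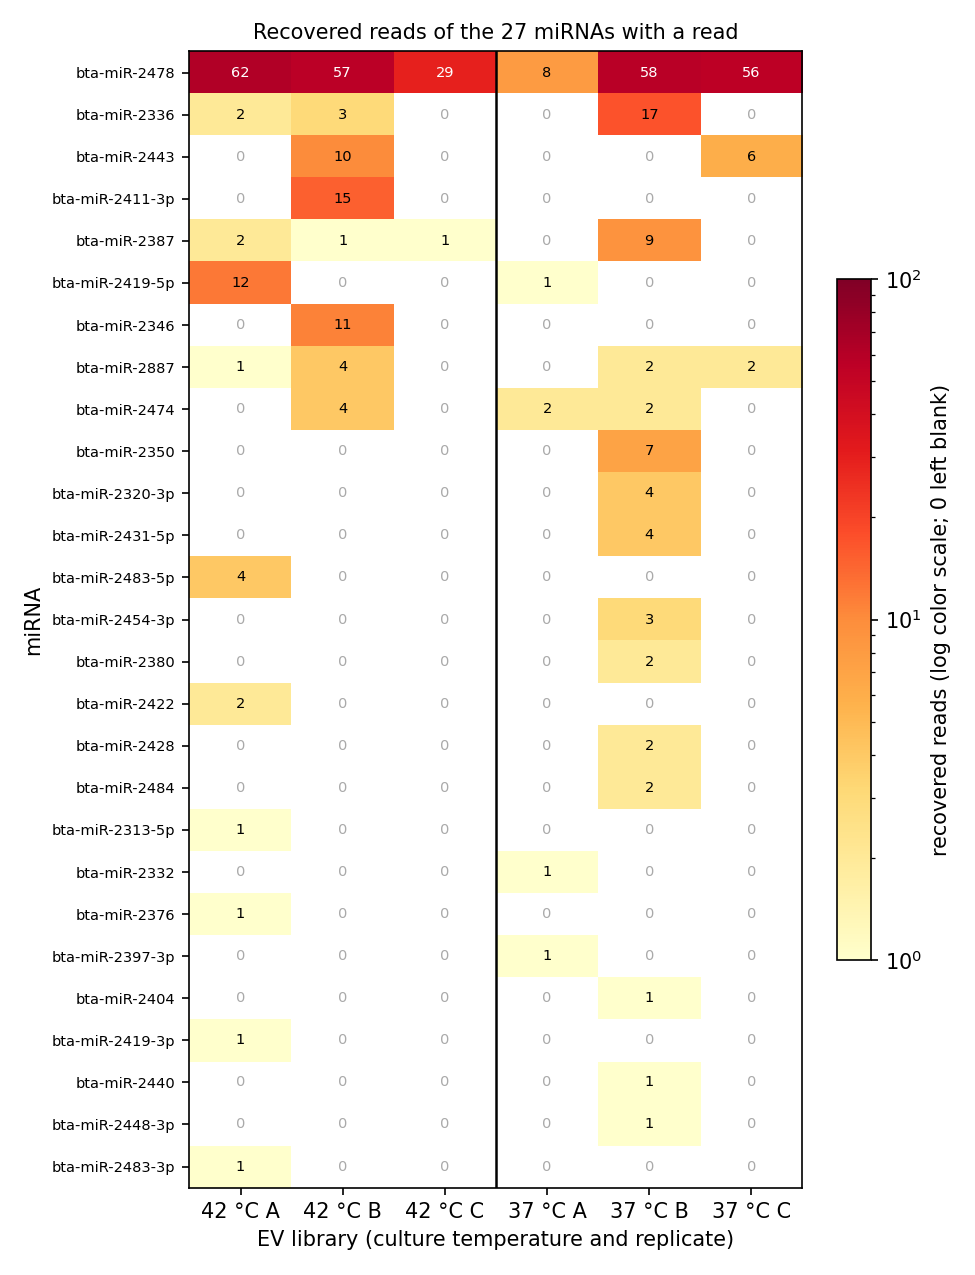
Recovered reads (color, log scale) of the 27 members with a read, 1 row each, in the 3 libraries at 42 °C on the left and the 3 at 37 °C on the right. The row of bta-miR-2478 is filled in all 6 libraries with 8 to 62 reads, while 20 of the rows are filled in 1 library only.

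The libraries differed in depth and in makeup. The reads assigned to a miRNA numbered 72580 to 213877 at 42 °C and 31640 to 150214 at 37 °C, and 1 read was worth 5.53 to 28.7 CPM at 42 °C and 5.87 to 17.01 CPM at 37 °C. bta-miR-1246, the most abundant miRNA, took 26.7% to 71.8% of the reads at 42 °C and 24.99% to 49.99% at 37 °C. Epithelial miRNAs (the miR-200 family and miR-205, 6 of 6 read) held 0.621% to 3.18% of the reads at 42 °C and 1.52% to 2.29% at 37 °C. Of 5 miRNAs of multiciliated cells, bta-miR-449b and bta-miR-449c were at 0, and the list held 0.00748% to 0.0183% at 42 °C and 0.0171% to 0.0326% at 37 °C. Leukocyte miRNAs (4 of 4 read) held 0.251% to 0.490% at 42 °C and 0.0186% to 0.0601% at 37 °C, red blood cell miRNAs (3 of 3 read) 0.964% to 14.7% at 42 °C and 2.59% to 4.60% at 37 °C, liver miR-122 0.626% to 8.16% at 42 °C and 1.77% to 3.03% at 37 °C, and stromal miRNAs (4 of 4 read) 0.459% to 0.601% at 42 °C and 0.281% to 1.33% at 37 °C. The highest red blood cell and liver shares were both in 42 °C library B. The part of these differences in the members' values was not tested.

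The number of members read varied between libraries of like depth. In libraries A, B and C, 11, 8 and 2 members had a read at 42 °C, against 5, 15 and 3 members at 37 °C. The group means were 7.0 ± 4.58 members at 42 °C and 7.67 ± 6.43 at 37 °C (SD, n = 3 each), a difference well inside the spread between pools. The deepest library, 42 °C B, showed 8 members, and 37 °C libraries B and C, with 150214 and 140055 reads, showed 15 and 3. When each library was taken at the 31640 reads of the shallowest one, the expected numbers for A, B and C were 5.83, 5.01 and 1.44 members at 42 °C and 5.0, 7.92 and 2.19 at 37 °C, so both C libraries stayed lowest in their groups. Members seen in no other library numbered 6, 2 and 0 in 42 °C A, B and C, and 2, 10 and 0 in 37 °C A, B and C. In relation to its numbers, the rest of the table varied less. It had 222, 217 and 192 miRNAs read at 42 °C and 210, 241 and 224 at 37 °C. Its miRNAs with a read had a median total of 30 reads, against 3 for members. The part of abundance in this contrast was not tested.

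**Figure D2:**
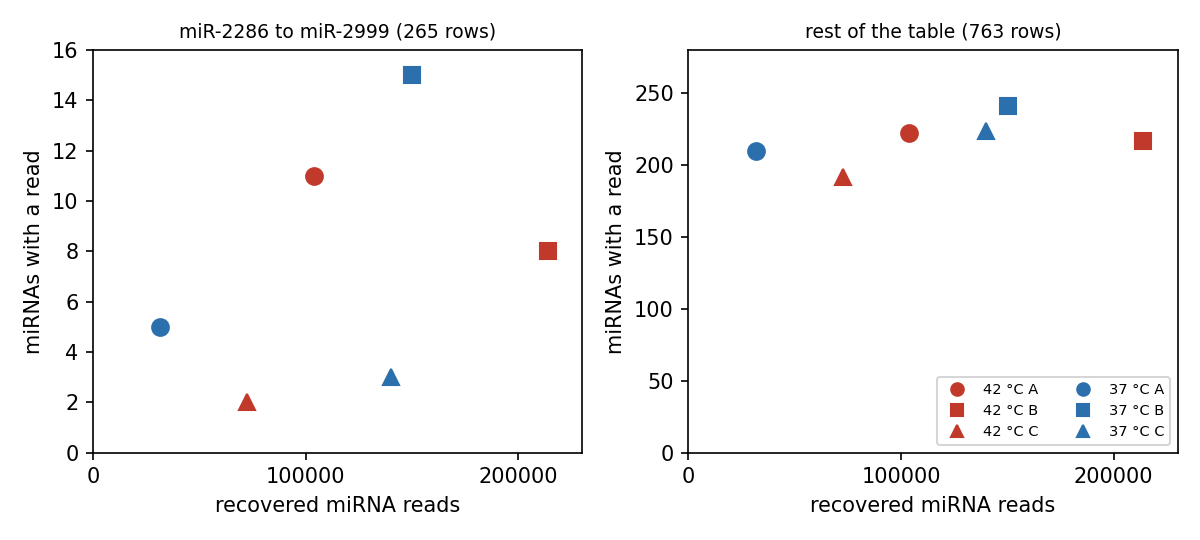
Number of miRNAs with a read (vertical axis) against recovered miRNA reads (horizontal axis), 1 point per library, red for 42 °C and blue for 37 °C. On the left, the 265 members range from 2 to 15 per library, with 15 and 3 in 2 libraries of like depth (37 °C B and C), and on the right the other 763 rows range from 192 to 241.

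As a share of all miRNA reads, the members took 0.0857%, 0.0491% and 0.0413% in 42 °C libraries A, B and C (95% Wilson intervals 0.0697% to 0.105%, 0.0406% to 0.0594% and 0.0290% to 0.0590%). In the 37 °C libraries the shares were 0.0411%, 0.0766% and 0.0457% (0.0240% to 0.0703%, 0.0638% to 0.0919% and 0.0358% to 0.0583%). One library of each group stood above the others of its group, A at 42 °C and B at 37 °C, and the groups overlapped. The means were 0.0587 ± 0.0237% at 42 °C and 0.0544 ± 0.0193% at 37 °C (SD, n = 3 each). The intervals cover counting error only, since reads without molecular identifiers are not independent molecules.

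On the TMM-adjusted scale the summed level of the members was 707, 581 and 862 CPM at 42 °C and 221, 676 and 473 CPM at 37 °C, with means of 717 ± 141 CPM at 42 °C and 457 ± 228 CPM at 37 °C (SD, n = 3 each). Library B at 37 °C lay above library B at 42 °C, so the groups overlapped here too. Without bta-miR-2478 the sums were 215, 266 and 28.7 CPM at 42 °C and 85.0, 335 and 59.1 CPM at 37 °C, which average 169.6 ± 124.7 CPM at 42 °C and 159.7 ± 152.3 CPM at 37 °C, so nearly all of the 260.1 CPM between the group means of the full sum lay in 1 miRNA. Without 37 °C library A that difference was 142.4 CPM. The 28.7 CPM of 42 °C library C was 1 read.

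bta-miR-2478 was the only member at a level readable in every library. Its gene lies between NKAIN2 and TRDN and overlaps no other entry in the RefSeq gene table of the later assembly ARS-UCD2.0, which was used for names and neighbours alone. It had 62, 57 and 29 reads in 42 °C libraries A, B and C, against 8, 58 and 56 reads in the 37 °C libraries. These reads correspond to 493, 315 and 833 CPM at 42 °C and to 136, 341 and 414 CPM at 37 °C. The highest values were those of 42 °C libraries C and A, the lowest was that of 37 °C library A, and 42 °C library B fell among the 37 °C values.

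The group means of bta-miR-2478 were 547 ± 263 CPM at 42 °C and 297 ± 144 CPM at 37 °C (SD, n = 3 each), which placed it at rank 73 of the table at 42 °C and rank 90 at 37 °C. Its log2 fold change was 0.89 (SE 0.57, 95% interval −0.34 to 2.12), and with limma the adjusted p was 0.477, so no difference beyond the spread between pools was found, while the interval still holds a change of more than 4-fold. Without 37 °C library A, the lowest, the log2 fold change was 0.42. Pooled over libraries, the read ratio was 1.29 (1.01 to 1.66 by counting error alone). As a plain share of reads the order of the libraries changed: bta-miR-2478 took 0.0597%, 0.0267% and 0.0400% at 42 °C and 0.0253%, 0.0386% and 0.0400% at 37 °C. Here 42 °C library A was highest and 42 °C library C was level with 37 °C library C. The mean shares were 0.0421 ± 0.0166% at 42 °C and 0.0346 ± 0.00812% at 37 °C (exact permutation test, two-sided p = 0.5, where 3 against 3 libraries cannot go below 0.1). With bta-miR-1246 left out of the total, the means were 0.0926 ± 0.0530% at 42 °C and 0.0634 ± 0.0258% at 37 °C (exact permutation test, two-sided p = 0.4).

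**Figure D3:**
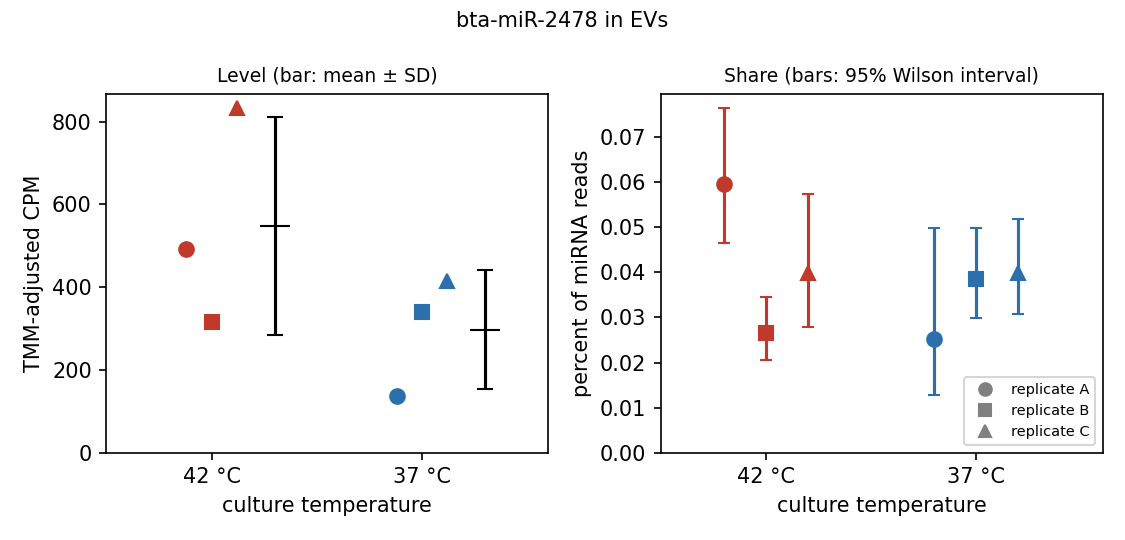
bta-miR-2478 in each EV library, 42 °C left of 37 °C, as TMM-adjusted CPM with the group mean ± SD (left panel) and as percent of miRNA reads with 95% Wilson intervals (right panel). In CPM, 42 °C library C is highest at 833, whereas as a share of reads it sits at 0.0400% beside 37 °C library C at 0.0400%.

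To ask which members differed between 42 °C and 37 °C, the whole table was fitted with limma on log2(CPM + 10), a scale that understates the changes of rare miRNAs. The limit for testing, a group mean of 10 CPM or more, was reached by 251 miRNAs, of which 11 were members. Of these 11, 4 passed in both groups, 5 only at 42 °C and 2 only at 37 °C, while over all miRNAs 193 passed in both, 23 only at 42 °C and 35 only at 37 °C. The 9 members at 42 °C and 6 at 37 °C depended on the scaling, since 8 at 42 °C and 9 at 37 °C passed with columns scaled to a common sum. The member nearest above this limit was bta-miR-2887 (10.0 CPM at 42 °C) and the nearest below were bta-miR-2431-5p and bta-miR-2320-3p (7.83 CPM each at 37 °C). The limit was often met through 1 library: without 42 °C library B, 4 members reached it at 42 °C in place of 9, and without 37 °C library B, 3 reached it at 37 °C in place of 6.

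Calls required an adjusted p under 0.05 together with a 2-fold or larger change, and none of the 11 members met both. With limma 6 of the 251 miRNAs were called (2.39%), with edgeR on the recovered reads 11 (4.38%) and with DESeq2 17 (6.77%), and no member was among them. DESeq2 gave an adjusted p for 185 of the 251 miRNAs and for 1 of the 11 members, bta-miR-2478, so the other 10 could not have been called by it. At an unadjusted p under 0.05, limma gave 0 members beside 17.5% of all miRNAs tested, edgeR 1 member (bta-miR-2411-3p, adjusted p = 0.275) beside 16.7%, and DESeq2 0 members beside 14.3%. No member had groups that did not overlap, while 24.3% of the 251 miRNAs did. A 0 in a library of each group makes the groups overlap, whatever the other values are. Every tested member but bta-miR-2478 and bta-miR-2387 had such 0s, so the 24.3% offers no comparison for them. The limma adjusted p-values of the members lay between 0.477 and 0.986. Their median log2 fold change was 0.44, with 8 above and 3 below 0, beside −0.01 for all 251 miRNAs, with 123 above and 128 below. This sign was not stable: the members' median was −0.22 with no filter on low values (27 members), and with columns scaled to a common sum it was 0.11, or −0.20 with bta-miR-1246 left out of that sum. Since 7 of the 11 passed the limit only in the group where they were higher, these counts describe the filter as much as the EVs.

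**Figure D4:**
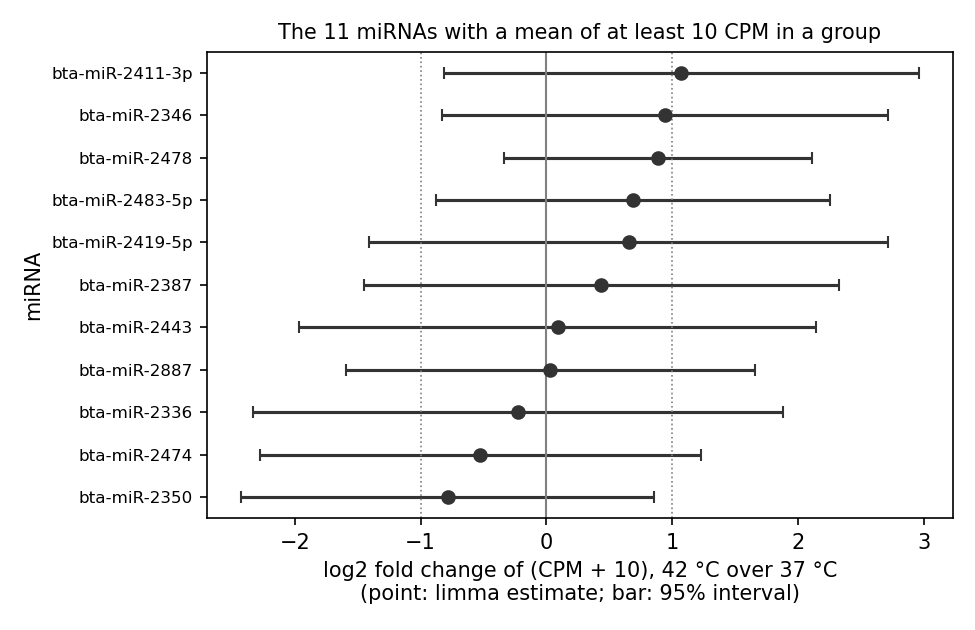
Log2 fold change of (CPM + 10), 42 °C over 37 °C, for the 11 members tested, with the 95% interval from limma; dotted lines mark a 2-fold change. Every interval crosses 0, with estimates between −0.78 for bta-miR-2350 and 1.07 for bta-miR-2411-3p.

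The next 3 members owed all their 42 °C reads to 1 library and had none at 37 °C. bta-miR-2411-3p, from a hairpin inside UBAP2L, a gene of stress granule assembly in human cells, had 0, 15 and 0 reads in 42 °C libraries A, B and C, and 0 in each 37 °C library. Its pooled 42 °C level was 5.34-fold that of 3 reads at 37 °C, the most that a count of 0 allows. That ratio takes the 15 reads as exact, so it is no lower bound on the change. The limma log2 fold change of bta-miR-2411-3p was 1.07 (SE 0.87, adjusted p = 0.592; 4.93 with edgeR and 4.07 with DESeq2). The limma value depends on the added 10 CPM and is no bound either. bta-miR-2346 came from within ASPSCR1, whose product tethers glucose transporter vesicles in mouse fat and muscle cells. It had 0, 11 and 0 reads at 42 °C and 0 in each 37 °C library. By the same rule its pooled level was 3.91-fold that of 3 reads (log2 fold change 0.94, SE 0.82, limma adjusted p = 0.630). bta-miR-2483-5p, from within the teneurin gene TENM1, had 4, 0 and 0 reads at 42 °C and 0 in each 37 °C library. Its pooled level was 1.42-fold that of 3 reads (log2 fold change 0.69, SE 0.73, limma adjusted p = 0.656). With the counting error of its 4 reads left out, that ratio does not show it higher at 42 °C. In all 3 cases the other 42 °C libraries were at 0 like those at 37 °C, so the groups overlapped. Library B at 42 °C, which held every read of bta-miR-2411-3p and bta-miR-2346, was also the one with 14.7% of its reads in red blood cell miRNAs and 8.16% in miR-122. The part of this in the result was not tested.

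bta-miR-2419-5p, whose hairpin lies between NOD1 and ZNRF2, had 12, 0 and 0 reads in 42 °C libraries A, B and C, against 1, 0 and 0 reads in the 37 °C libraries. In CPM, its level was 95.4 in 42 °C library A and 17.01 in 37 °C library A. It was thus read once outside 42 °C library A, and the pooled read ratio was 12.8 with a wide counting interval (1.90 to 548). The log2 fold change was 0.65 (SE 0.95, limma adjusted p = 0.754).

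bta-miR-2350, from within BIN1, a gene for a protein that curves membranes, was the reverse case, with 0 reads in each 42 °C library against 0, 7 and 0 reads at 37 °C. Its pooled 37 °C level was 2.19-fold that of 3 reads at 42 °C, a ratio that takes the 7 reads as exact and is no bound. Its log2 fold change was −0.78 (SE 0.76, limma adjusted p = 0.635). bta-miR-2336, between VPS53 and RFLNB, had 2, 3 and 0 reads at 42 °C against 0, 17 and 0 reads at 37 °C, a pooled ratio of 0.314 (0.0906 to 0.886). All its 37 °C reads were in library B, at 99.9 CPM, while its 42 °C reads were spread over libraries A and B at 15.9 and 16.6 CPM. Its log2 fold change was −0.22 (SE 0.97, limma adjusted p = 0.939), and without 37 °C library B it was 0.93.

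bta-miR-2387, from within GTF2IRD1, a transcription factor gene, had 2, 1 and 1 reads in 42 °C libraries A, B and C, against 0, 9 and 0 reads at 37 °C. Besides bta-miR-2478, it was the only member read in all 3 libraries at 42 °C, yet most of its reads lay in 37 °C library B. The pooled ratio was 0.474 (0.107 to 1.70) and the log2 fold change 0.44 (SE 0.87, limma adjusted p = 0.839), so the reads and the log-scale fit took opposite signs. bta-miR-2474, from within SHB, an adaptor of receptor tyrosine kinase signaling, had 0, 4 and 0 reads at 42 °C and 2, 2 and 0 reads at 37 °C. Its pooled ratio was 1.07 (0.199 to 5.73) and its log2 fold change −0.52 (SE 0.81, limma adjusted p = 0.780), again of opposite sign. The 2 reads of 37 °C library A were worth 34.0 CPM, more than the 22.1 CPM of 4 reads in 42 °C library B.

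bta-miR-2887 was read in 4 libraries, with 1, 4 and 0 reads at 42 °C and 0, 2 and 2 reads at 37 °C. Its pooled ratio was 1.33 (0.287 to 6.72) and its log2 fold change 0.03 (SE 0.75, limma adjusted p = 0.986), and no library stood apart. It has 2 RefSeq genes, MIR2887-1 and MIR2887-2. The second overlaps a pseudogene entry and has an rRNA entry as its next neighbour. It was also the only 1 of the 24 members from bta-miR-2881 upward to have a read.

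bta-miR-2443 overlaps the protein-coding entry LOC101903200 and lies between the let-7a-3 and let-7b genes, which encode miRNAs of the let-7 family, abundant in differentiated cells. It had 0, 10 and 0 reads in 42 °C libraries A, B and C, against 0, 0 and 6 reads at 37 °C, or 55.3 CPM in 42 °C B and 44.3 CPM in 37 °C C. One library of each group thus held all of it, and the log2 fold change was 0.09 (SE 0.95, limma adjusted p = 0.970). Its neighbours were read in every library: let-7b had 2153, 4071 and 483 reads at 42 °C and 791, 3007 and 3056 reads at 37 °C, and let-7a-5p, which other let-7a genes also encode, had 5873, 5961 and 979 reads at 42 °C and 1447, 7849 and 5939 reads at 37 °C. bta-let-7a-3p had 12, 91 and 0 reads at 42 °C and 3, 14 and 11 reads at 37 °C, so its highest count, like that of bta-miR-2443, was in 42 °C library B.

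The 16 members with a read that fell under the limit had 28 reads in all, at most 4 each, and every one was seen in a single library. Library B at 37 °C held 9 of them, 42 °C library A held 5 and 37 °C library A held 2, and no such member was seen in the other 3 libraries. The most abundant were bta-miR-2431-5p and bta-miR-2320-3p, each with 0 reads at 42 °C and 4 reads in 37 °C library B. The pooled 37 °C level of each was 1.25-fold that of 3 reads at 42 °C. With the counting error of the 4 reads left out, this ratio does not show them lower at 42 °C. bta-miR-2454-3p, from within DNMT1, the maintenance DNA methyltransferase gene, had 0 reads at 42 °C and 3 reads in 37 °C library B. At 42 °C, the highest was bta-miR-2422, from within the filamin gene FLNC, with 2 reads in library A and 0 reads at 37 °C. bta-miR-2440, from within the ribosomal protein gene RPL3 and flanked there by snoRNA entries, was seen as 1 read in 37 °C library B.

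Both arms of a hairpin are listed for 34 hairpins of the members, and 9 of these had a read of an arm. Both arms were read for 2 of them. The hairpin of bta-miR-2419 had 13 reads of its 5p arm and 1 read of its 3p arm, and that of bta-miR-2483 had 4 and 1. In each of these 2 hairpins the 3p read came from 42 °C library A, the library that held most of the 5p reads. Of the other 7 hairpins, 2 were read as the 5p arm only and 5 as the 3p arm only.

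Position in a gene did not separate members with and without a read. Of the 231 hairpins behind the members, 228 matched a RefSeq gene by name, and 5 had more than 1 gene. Among the 25 hairpins with a read, 19 (76.0%) overlapped a protein-coding gene, and among the 203 matched hairpins with none, 157 (77.3%) did. Overlap was taken from positions without regard to strand, and the transcripts of the overlapped genes were not analysed here.

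Set beside other number classes, the members were most like the miR-2284 and miR-2285 families, which are large families of cattle miRNAs with closely related sequences. A read was found for 10.2% of the members, 15 of the 148 rows of those families (10.1%), 36 of the 206 rows numbered 3000 and above (17.5%) and 263 of the 409 remaining rows (64.3%). The limit of 10 CPM was reached by 4.15%, 3.38%, 10.7% and 52.1% of these classes in the same order. The median total of those with a read was 3 reads for members, 2 for the miR-2284 and miR-2285 rows, 8 for numbers of 3000 and above and 37 for the remaining rows. Within the run, 10 of 135 members from bta-miR-2286 to bta-miR-2399 (7.41%), 16 of 106 from bta-miR-2400 to bta-miR-2499 (15.1%) and 1 of 24 with higher numbers (4.17%) had a read.

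The spread over libraries was also counted. Of the members with a read, 74.1% were in 1 library, against 86.7% of the miR-2284 and miR-2285 rows and 21.3% of all other miRNAs, those rows included. Among miRNAs with 4 to 22 reads in all, the 12 members were in a median of 1.5 libraries and 6 of them (50.0%) in 1 library, while the 77 other miRNAs were in a median of 3 libraries and 12 of them (15.6%) in 1. Of the 3 miR-2284 and miR-2285 rows in that range of reads, 2 were also in 1 library. These shares are descriptions over miRNAs that share the same 6 libraries, and no test was made of them.

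**Figure D5:**
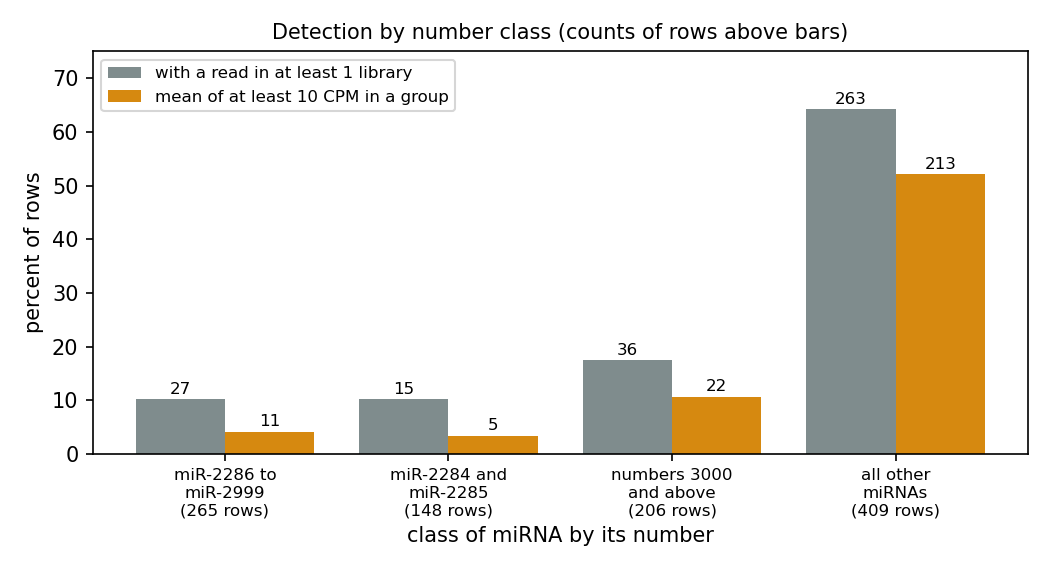
Percent of table rows with a read in at least 1 library (grey) and with a group mean of 10 CPM or more (orange), by class of miRNA number, with counts of rows above the bars. The members (27 and 11 of 265) stand near the miR-2284 and miR-2285 rows (15 and 5 of 148), below numbers of 3000 and above (36 and 22 of 206) and far below the remaining rows (263 and 213 of 409).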

How the data were processed

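Small RNA of EVs was sequenced in 6 libraries, 3 at 42 °C and 3 at 37 °C, grouped by the labels. The authors trimmed reads (at least 15 bases), annotated them against miRBase release 22 in CLC Genomics Workbench version 21 and normalized them by TMM. The deposited values are a signal that the authors call TMM-adjusted CPM, and the columns sum to 538100 to 2084369. The submitters' processing notes also name bcl2fastq, Bowtie2 2.2.2, DESeq2 and ARS-UCD1.2, without roles. Dividing a library's values by its smallest value above 0 gave whole numbers within 0.01 for 100% of them, and these numbers were taken as reads, 31640 to 213877 per library, which sets the precision: 3 reads, the limit for a count of 0, equal 16.6 to 86.2 CPM. No pair of replicates agreed within sampling noise (smallest chi-square 3344 at 163 degrees of freedom).

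miRNAs that reached a group mean of 10 CPM were tested with limma 3.58.1 (R 4.3.3, intensity trend) on log2(CPM + 10), with Benjamini-Hochberg adjustment over all 251. Calls needed an adjusted p under 0.05 and a 2-fold change. edgeR 4.0.16 (quasi-likelihood) and DESeq2 1.42.0 on the recovered reads, pseudocounts of 1 and 50, other filters and scalings, library weights, a replicate block and leaving out each library were alternatives. The test was checked on simulated counts of fixed dispersion, for the sign of its calls and for finding larger changes more often. That check does not show its power at the members' low levels. Pooled read ratios divide each group's reads by the summed reads per CPM of its libraries and have exact conditional 95% intervals. Every member that passed this limit or had a read in at least 3 libraries was named, and others serve as examples chosen after their values were seen. The members and lists were chosen with earlier results of these data known. Mature sequences were not analysed here.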

Additional observations from a re-analysis of the deposited data

How the results depend on the processing

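No member was called under the 17 alternatives of the test (DESeq2 could call 1 of the 11, having given the other 10 no adjusted p), and the lowest adjusted p of a member was 0.275 (edgeR, bta-miR-2411-3p). Other settings also left little room for a call. With the limit of 50 CPM, bta-miR-2478 was the only member tested. With a pseudocount of 50, the largest log2 fold change of a member was 0.79 (bta-miR-2478), short of 2-fold whatever its p. Over 169 results for single members, 155 kept their direction and 14 did not, and 7 of the 11 members kept it throughout, although not every member could be fitted under each filter. The log2 fold change of bta-miR-2336 was 0.52 with a pseudocount of 1 and −0.80 to 0.93 without 1 library. That of bta-miR-2387 was −0.52 with edgeR, −0.33 with DESeq2 and −0.0058 to 1.32 without 1 library. With columns scaled to a sum of 1000000 without bta-miR-1246, bta-miR-2443 was at −0.12 and bta-miR-2887 at −0.20. bta-miR-2443 ranged from −0.81 to 0.90 and bta-miR-2887 from −0.37 to 0.45 without 1 library, and bta-miR-2887 was at −0.0101 with library weights. Over all miRNAs the median was −0.01, but −0.57 with columns scaled to a sum of 1000000 (−0.43 without bta-miR-1246), and bta-miR-2478 then stood at 0.23 (0.43). On the recovered reads, fold changes of members seen in few libraries were larger than on log2(CPM + 10), with −4.03 (edgeR) and −2.85 (DESeq2) for bta-miR-2350, 3.04 and 3.28 for bta-miR-2419-5p, 4.53 and 3.62 for bta-miR-2346, 3.66 and 2.77 for bta-miR-2483-5p, and −1.44 and −1.48 for bta-miR-2336. Calls among all miRNAs numbered 1 to 20 over the alternatives, with 4 of 6 higher as reported and 4 of 20 with the sum of 1000000.

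The difference in summed CPM, 260.1, was 42.7 with that sum, 9.97 without bta-miR-2478 and 142.4 to 369.7 without 1 library (lowest without 37 °C A, highest without 37 °C B). At the depth of the shallowest library, 9.60 members would be read at 42 °C and 12.6 at 37 °C, and leaving out 1 library gave 8 to 15 and 7 to 18. With a limit of 50 CPM, 1 member passed at 42 °C and 1 at 37 °C, and leaving out 1 library gave 4 to 10 at 42 °C and 3 to 8 at 37 °C under the limit of 10 CPM. Whether the letters A, B and C pair the samples is unknown (correlations of same-lettered deviations −0.06, 0.03 and −0.06), and a replicate block gave 15 calls among all miRNAs in place of 6, with 0 members called. The cause of these shifts was not tested. Low read counts limit most members: a few reads in 1 library can neither show nor exclude a change.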
